A study of Mus musculus with 41 samples.

Results

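In mouse primary cortical neurons, 3800 of the 16358 H3K4me2 regions on chromosomes 1 to 19 (23.2%) carried RNA polymerase II (Pol II) but no H3K4me1 region. They were chosen from 4 lists of called regions (peaks). Each lies in the H3K4me2 list of LSD1n WT neurons before KCl, overlaps by at least 1 bp a peak in both Pol II lists at KCl 0 h, and overlaps no H3K4me1 region of LSD1n WT neurons at 0 h. These 3800 regions are called members below, and what the 4 lists of the rule hold in them is given as a description only.

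The study asked where LSD1 and its neuronal form LSD1n bind and how histone marks differ without LSD1n. After 10 days in culture the neurons received 55 mM KCl, which depolarizes them, for 1 h or 0 h. Chromatin immunoprecipitation with sequencing (ChIP-seq) gave 27 lists on build mm9. H3K4me1, H4K20me1 and H3K36me3 were profiled in LSD1n KO and LSD1n WT neurons at 1 h and 0 h, and H3K4me2 in LSD1n WT neurons at both times. Pol II was profiled in neurons labelled LSD1n KO and LSD1n WT at both times. The deposited Pol II lists carry KO in their names where the sample labels say WT, and the reverse, so these are called the libraries labelled KO and labelled WT. LSD1 was pulled down in wild type neurons at 1 h and 0 h, in LSD1n KO neurons with no KCl time given, and in LSD1n WT neurons at 0 h. Flag-tagged LSD1n or LSD1c came from the lines R26/LSD1n and R26/LSD1c, whose driving promoter is not given in the sources used here, at 1 h and 0 h. Each group has 1 library, except H4K20me1 in LSD1n WT at 1 h, which has 2 that are not said to come from separate cultures. No difference between groups was therefore tested. Intervals in brackets are 95% exact binomial intervals over regions; they cover counting error only, and say nothing of the spread between cultures.

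As background, H3K4me2 marks both promoters and enhancers, while H3K4me1 is typical of enhancers and of the flanks of active promoters. Pol II peaks are sharpest at transcription start sites, where initiating and paused polymerase accumulates, and H3K36me3 and H4K20me1 lie mainly over transcribed gene bodies. LSD1 is a demethylase that removes methyl groups from H3K4, and LSD1n is a splice form found in neurons, for which the series title names H4K20 as substrate. Without an mm9 gene annotation or genome, genes are not named, no sequence is shown, markers of neurons and other cells were not checked, and it was not examined whether a member is a promoter. Regions are identified by their mm9 position.

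Total sequenced tags ran from 6990017 to 34859557 per library, and the lists held from 940 (Flag-LSD1n at 0 h) to 62945 peaks (H3K4me1 in KO at 1 h). A library with a longer list can be called in more members. Differences over all members between 2 lists with 1 library a group are therefore also given, or listed in the plot of differences, with both lists cut to the same length. This was not done for Pol II, for H3K4me2 over KCl time, for differences within subsets of members or at the other alternative settings. Title prefixes are shared by the lists of H3K4me1, of H3K4me2, of H3K36me3, of Pol II, of Flag-LSD1n and of Flag-LSD1c. The H4K20me1 lists carry 3 prefixes and the LSD1 lists 3, 1 of them for both wild type lists and 1 each for LSD1n KO and LSD1n WT.

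Members were of middling width. Their median was 1481 bp (quartiles 1005 and 2003 bp, range 435 to 6995 bp), against 1967 bp for the 4428 H3K4me2 regions with Pol II and H3K4me1. The 3674 regions with H3K4me1 and no Pol II had a median of 655 bp, the 2981 with neither 629 bp, and the 1475 with Pol II in 1 of the 2 lists 1119 bp. Members covered 6.02 Mb in all. They were spread over all 19 autosomes, from 26.9% of the H3K4me2 regions of chromosome 16 (23.1 to 31) to 19.3% of those of chromosome 15 (16.4 to 22.4).

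The widest member lay on chromosome 4 (48054210 to 48061204, 6995 bp). It was called in 16 of the 27 lists, among them 3 of H3K36me3, and its H3K4me2 was called at 1 h over 88.5% of its length. The next lay on chromosome 15 (96113026 to 96119644, 6619 bp) and was called in 9 lists, none of them an LSD1 or Flag list. A further region of 6331 bp on chromosome 15 (61815108 to 61821438) was called in 15 lists. In all 3 the H3K4me2, both Pol II lists at 1 h and the H4K20me1 lists of KO and WT at 0 h were present.

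The rule on H3K4me1 is a matter of position for some members. In 253 members the nearest H3K4me1 region of WT at 0 h lay within 100 bp, and in 1328 (34.9%) within 1 kb. Just inside the rule, members on chromosome 2 (143371029 to 143372559) and chromosome 3 (35831389 to 35832319) touched such a region with a gap of 0 bp. Just outside it, regions on chromosome 11 (22759208 to 22760314) and chromosome 2 (119420010 to 119420510) overlapped one by 1 bp. In 315 of the 4428 regions with Pol II and H3K4me1 the overlap was 100 bp or less. Without the members that had H3K4me1 within 1 kb, 2472 remained.

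Across the 23 lists outside the rule a member was called in a median of 9 (quartiles 7 and 11, range 1 to 21). The medians of the other classes were 11 for Pol II with H3K4me1, 5 for H3K4me1 without Pol II, 3 for neither and 7 for Pol II in 1 list. Members sat close to the other Pol II class in the Pol II, Flag and wild type LSD1 lists, above it in LSD1 of LSD1n KO and LSD1n WT, and below it in the 13 lists of H3K4me2 at 1 h, H3K4me1, H4K20me1 and H3K36me3, as the plot of shares by class shows. Since the rule splits these classes by H3K4me1 in WT at 0 h, the order in the H3K4me1 lists was set by the choice of members.

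**Figure D1:**
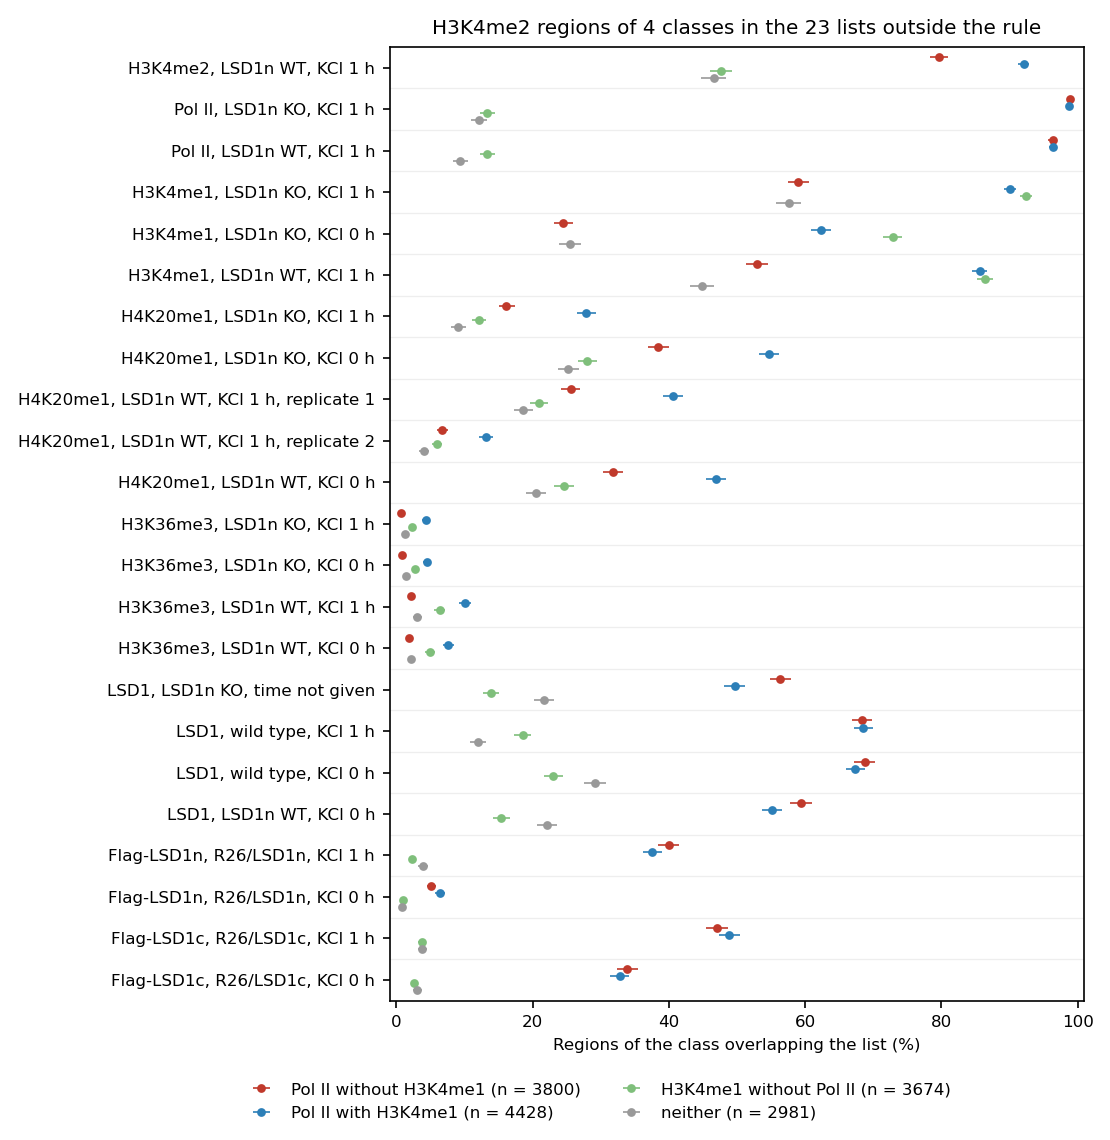
Share of the H3K4me2 regions of 4 classes (%, x axis) that overlap each of the 23 lists outside the rule (y axis), with 95% exact binomial intervals over regions; the Pol II genotype is as labelled. Members (red) lie near or above the Pol II class with H3K4me1 (blue) in the Pol II, LSD1 and Flag lists, and below it in the H3K4me2, H3K4me1, H4K20me1 and H3K36me3 lists.

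Pol II stayed called at nearly all members after KCl. At 1 h, 98.8% of members (98.4 to 99.1) had a peak in the library labelled KO and 96.3% (95.7 to 96.9) in that labelled WT, against 61% and 58.5% of all 16358 H3K4me2 regions. Both 1 h lists had a peak in 3643 members, 95.9% (95.2 to 96.5), against 55.3% of all H3K4me2 regions and 96% (95.3 to 96.5) of those with Pol II and H3K4me1. Since the rule asks for Pol II at 0 h, the gap to all regions was set by the choice of members, and the share kept did not differ from that of the other Pol II class beyond counting error. A further 112 members had a 1 h peak only in the library labelled KO, 18 only in that labelled WT, and 27 in neither. The 1 h lists held 16264 (labelled KO) and 14358 (labelled WT) peaks, and these counts were not taken at the same length.

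Members whose Pol II was not called at 1 h were narrower, and stood later in the deposited order of the 0 h list, than members that kept it. All deposited scores are 1, so the position is not read as peak strength. In the library labelled KO these were 45 members, with a median position of 8156 in the 0 h list of 14284 peaks, against 5284 for the 3755 members that kept it. Their median H3K4me2 width was 1155 bp, against 1483 bp. In the library labelled WT they were 139 members at a median position of 8692 of 13142, against 5168, with widths of 1131 and 1499 bp. A single Pol II peak per 0 h list was the rule, in 3553 members of the library labelled KO and 3552 of that labelled WT. The Pol II site itself kept its place: the nearest 1 h peak lay a median of 24 bp (labelled KO) and 31.5 bp (labelled WT) from the 0 h site.

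H3K4me2, the mark that defines the regions, was called again at 1 h in 3027 members, 79.7% (78.3 to 80.9), against 69.8% of all H3K4me2 regions and 92.1% of those with Pol II and H3K4me1. The called stretch was mostly shorter. Over the 3027 members the called width had a median of 1115 bp after KCl and 1583 bp before it, with 2092 members (69.1%) narrower and 895 wider at 1 h. The 1 h library had 6990017 tags and the 0 h library 9418008, the 2 smallest of the series, and the part of that difference in the narrower calls was not tested.

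The 773 members without H3K4me2 at 1 h were narrow at 0 h, with a median of 1069 bp. The share kept was 62.2% in the narrowest of 4 width groups of members (up to 1005 bp) and 93.5% in the widest (over 2003 bp). The widest of the 773 spanned 3921 bp of chromosome 14 (40283526 to 40287446). The next spanned 3905 bp of chromosome 4 (129416429 to 129420333) and 3837 bp of chromosome 6 (86352932 to 86356768). All 3 kept Pol II in both 1 h lists and had an H3K4me1 call in WT at 1 h.

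**Figure D2:**
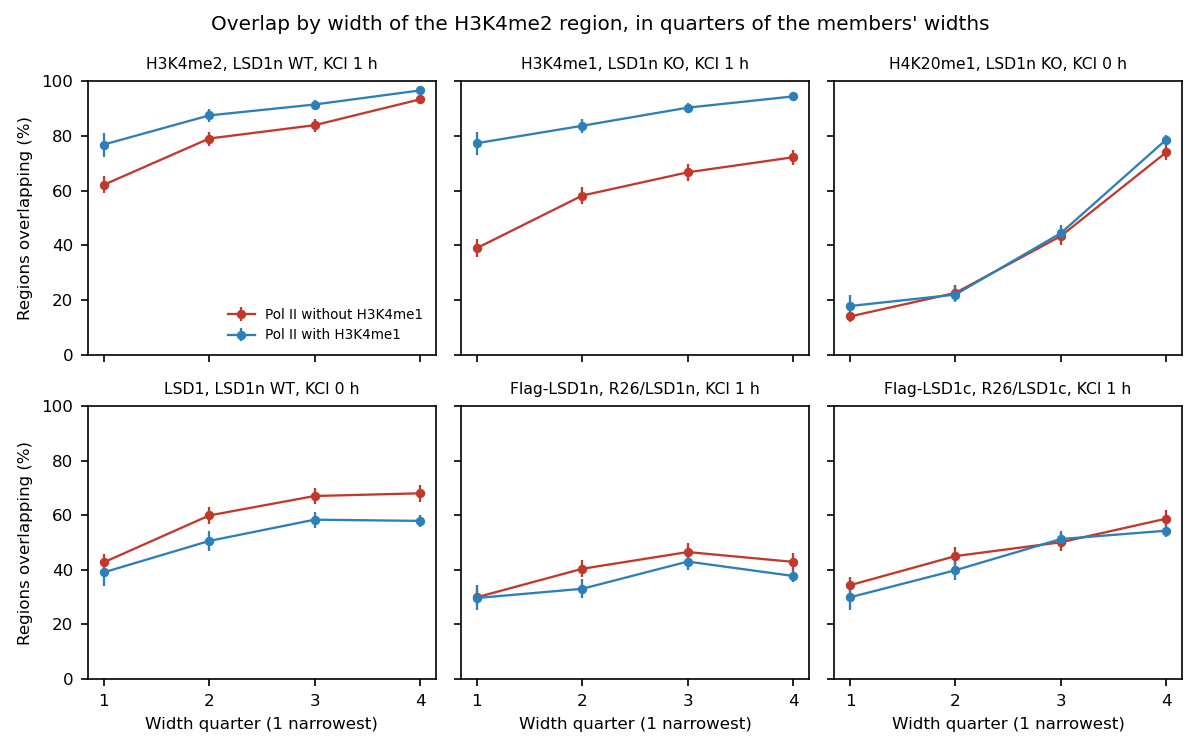
Share of regions overlapping 6 lists (%, y axis) by width of the H3K4me2 region (x axis, bounds at the members' quartiles of 1005, 1481 and 2003 bp), with 95% exact binomial intervals, for members (red) and regions with Pol II and H3K4me1 (blue). H4K20me1 shares grow with width in both classes, and the widest members have 74.1% in KO at 0 h, against 78.7% in the other class; the rule split the classes by H3K4me1, so their order in H3K4me1 follows from it.

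H3K4me1 was called in most members after KCl, although none had it in WT at 0 h by the rule. At 1 h it was called in 2243 members of the KO list, 59% (57.4 to 60.6), and in 2011 of the WT list, 52.9% (51.3 to 54.5), against 76.3% and 69.4% of all H3K4me2 regions. The KO list at 0 h overlapped 931 members, 24.5% (23.1 to 25.9), against 47.7% of all. The lower shares in members follow from the rule, since all H3K4me2 regions include the 54.5% with H3K4me1 in WT at 0 h. The regions with neither Pol II nor H3K4me1 lack it there too, and had 57.6% (55.8 to 59.3) in KO at 1 h, 44.9% (43.1 to 46.7) in WT at 1 h and 25.5% (23.9 to 27.1) in KO at 0 h. Members were above them by more than counting error in WT at 1 h only, and were wider, with a median of 1481 bp against 629 bp.

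The 3 lists divided the members. No H3K4me1 in any of them was found in 955 members (25.1%), 1 list called 1080, 2 lists called 1190, and all 3 called 575 (15.1%). Of the regions with neither Pol II nor H3K4me1, 29.4% had none of the 3 lists and 15.8% all 3. Both 1 h lists without the KO 0 h list called 916 members, 24.1% (22.8 to 25.5), against 18.3% (16.9 to 19.7) of the regions with neither; the absence in WT at 0 h is imposed by the rule in both classes. The regions with H3K4me1 in the 3 other lists included 4895 bp on chromosome 4 (22414005 to 22418899), where H3K4me1 covered 41.9% of the member in KO at 1 h, 35.5% in WT at 1 h and 10.2% in KO at 0 h. Members with H3K4me1 of WT within 1 kb at 0 h had it at 1 h in 65.2% (KO) and 61.7% (WT), and members without it in 55.7% (KO) and 48.2% (WT).

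H3K4me1 was called at 1 h in 752 members of KO alone and 520 of WT alone, a difference of 6.11 percentage points (4.26 to 7.92) in favour of KO. The KO library was the deepest of the series, and with the lists cut to the same length the difference was -5.26 points. The direction changed with this cut, which removes the narrow regions of the KO list only and so alters more than its length. Within KO, 1494 members were called at 1 h alone and 182 at 0 h alone, 34.5 points more at 1 h (33.1 to 35.8), from lists of 62945 and 33244 regions and libraries of 34859557 and 22970480 tags. With lists of the same length it was 12.2 points (10.4 to 13.9).

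Where H3K4me1 was called, it flanked the Pol II site. This was read in the 3426 members (90.2%) with a single Pol II peak in each 0 h list, laid out so that the longer arm of the H3K4me2 region points to the same side. The longer arm had a median of 932 bp and the shorter one of 418 bp. In KO at 1 h, 17.2% of these members had H3K4me1 at the Pol II site itself, with a maximum of 30.9% at 1000 bp on the longer side and 31.5% at 1100 bp on the shorter. In WT at 1 h the values were 13.8%, 24.3% (1100 bp) and 25.2% (900 bp), and in KO at 0 h 4.03%, 10.2% (1300 bp) and 12.3% (1000 bp). All 3 lists dipped at Pol II. The rule keeps H3K4me1 of WT at 0 h out of the whole member, which mostly holds the Pol II site. A dip in members is therefore favoured by their choice. The class with Pol II and H3K4me1 had the same dip, with 32.8% at the Pol II site against 51.2% at 1300 bp in KO at 1 h.

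H4K20me1 marked a minority of members before KCl, more of them in KO than in WT. At 0 h it was called in 1461 members of KO, 38.4% (36.9 to 40), and in 1208 of WT, 31.8% (30.3 to 33.3), against 36.5% and 30.8% of all H3K4me2 regions, so the members' shares were near the background. The regions with Pol II and H3K4me1 had 54.8% in KO and 47% in WT. The gap between the 2 Pol II classes was smaller at like width, with members lower in the widest and narrowest groups: in the widest group members had 74.1% (71.1 to 76.8) in KO and the other class 78.7% (76.9 to 80.4), and in the narrowest 13.9% (11.8 to 16.3) and 17.8% (14.1 to 21.9).

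In members, 492 were called in KO alone, 239 in WT alone and 969 in both at 0 h, 6.66 points more in KO (5.3 to 7.96). With the lists at the same length the difference was 3.97 points. Of the members called in WT, 80.2% were also called in KO. The difference was 7.51 points (5.26 to 9.62) among the 1518 members with a Flag-LSD1n site at 1 h and 6.09 points (4.35 to 7.75) among the 2282 without, intervals that overlap. Members with that site had more H4K20me1 in both genotypes, 46.6% in KO and 39.1% in WT, against 33% in KO and 26.9% in WT for members without it. They were wider as well, with a median of 1569 bp against 1391 bp, though the gap was present in each width group: in the narrowest 22.7% against 10.2% in KO, and in the widest 77.9% against 71.2%. The split by Flag-LSD1n site used the lists as deposited and was not counted in other regions.

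At 1 h the H4K20me1 shares of members differed between lists of very unlike length. The lists held 28453 (WT replicate 1), 2844 (WT replicate 2) and 9022 (KO) regions. Of their tags, 10.2%, 0.88% and 2.98% lay in peaks. The KO list overlapped 614, 16.2% (15 to 17.4), against 16.5% of all regions. The 2 WT lists overlapped 972 and 254 members, 25.6% and 6.68%, against 26.3% and 7.52% of all regions, with a mean of 16.1% ± 13.4 (SD, n = 2). KO minus that mean was 0.026 points, KO minus replicate 2 was 9.47 points and KO minus replicate 1 was -9.42 points. These differences went with the list lengths and were not computed at the same length. KO and WT replicate 2 share a title prefix, and WT replicate 1 has another. Within KO, 1 h minus 0 h was -22.3 points (-23.4 to -21.1), from lists of 9022 and 36291 regions, and -8.26 points with lists of the same length; these libraries have different prefixes, and KCl time cannot be told apart from prefix.

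The shape of H4K20me1 around Pol II split the same libraries. In KO at 0 h it was called at the Pol II site in 6.25% of the 3426 members, with maxima of 28.4% at 1700 bp on the longer side and 20.6% at 1500 bp on the shorter. In WT at 0 h the values were 4.23%, 21.4% (1500 bp) and 14% (1400 bp), and in WT replicate 1 at 1 h 2.71%, 18.6% (1700 bp) and 12.7% (1700 bp). In these 3 lists H4K20me1 was called less often at Pol II than beside it and lay more often on the side of the longer H3K4me2 arm, by 7.59 points (5.39 to 9.76) in KO and 7.71 points (5.84 to 9.53) in WT at 2 kb and 0 h. The lean was larger in the regions with Pol II and H3K4me1, with 21.3 points in KO and 16.9 points in WT. The longer arm of those regions had a median of 1252 bp. KO at 1 h and WT replicate 2 had no dip: their maxima were 5.25% at 200 bp and 2.34% at the Pol II site. They were the shortest H4K20me1 lists, with 9022 and 2844 regions, and the part of list length in the shape was not tested. KO at 1 h leaned to the longer arm as well, by 1.84 points at 2 kb (0.94 to 2.69).

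**Figure D3:**
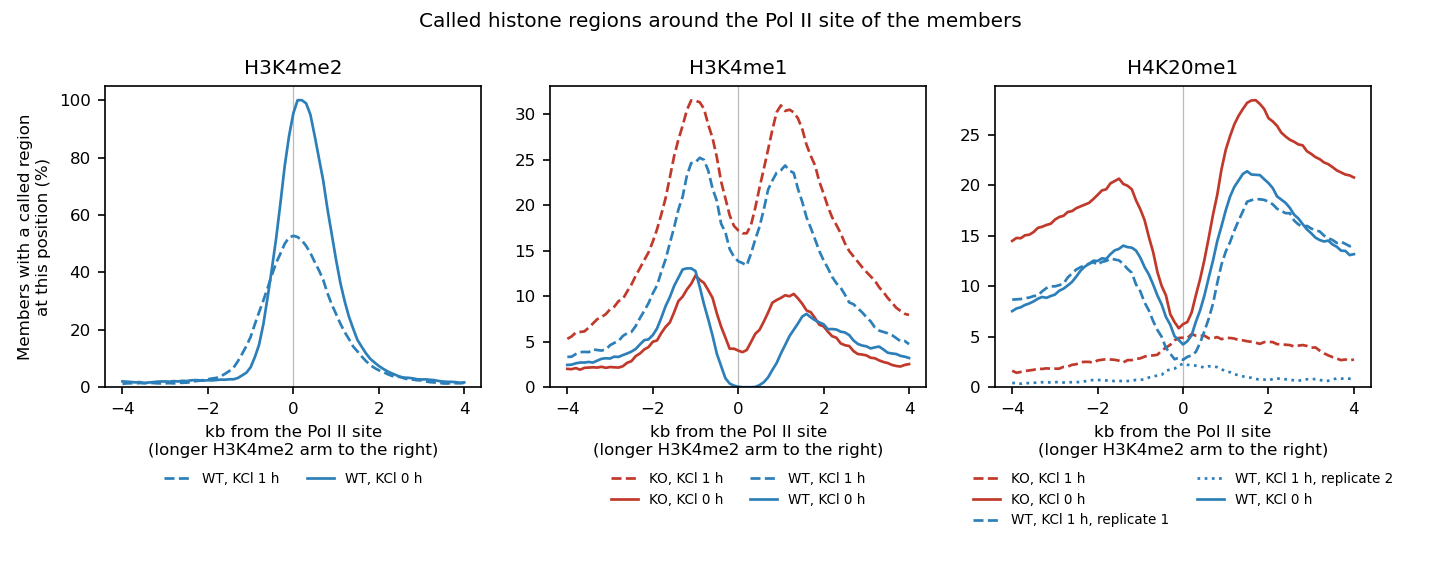
Share of the 3426 members with 1 Pol II site per 0 h list that have a called region (%, y axes) at each distance from that site (kb, x axes; the longer H3K4me2 arm is to the right), for H3K4me2, H3K4me1 and H4K20me1 lists of LSD1n KO (red) and LSD1n WT (blue). H3K4me1 peaks near 1 kb on both sides, which the rule favours, and H4K20me1 beyond 1 kb with a dip at Pol II in 3 of 5 lists. The H3K4me2 and H3K4me1 curves of WT at 0 h follow from the rule.

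The H3K4me2 calls at 1 h, and the H3K4me1 calls at 2 kb, were more frequent on the longer side as well. H3K4me2 at 1 h was called at the Pol II site in 52.7% of the members and at 1 kb in 25.5% on the longer side and 17.5% on the shorter, 8.03 points apart (6.03 to 9.99). At 0 h the 2 sides differed by construction (44.5% and 6.95%). The sides were chosen from that list, so the lean of the same mark at 1 h follows in part from the layout. H3K4me1 at 2 kb was more frequent on the longer side by 5.28 points in KO at 1 h (3.35 to 7.19) and 3.62 points in WT at 1 h (2.02 to 5.19), and the differences at 1 kb were -0.50 and -0.88 points, with intervals across 0. In KO at 0 h H3K4me1 lay more often on the longer side at 2 kb, by 1.69 points (0.55 to 2.81), and more often on the shorter side at 1 kb (-2.45 points, -3.94 to -0.94). The rule keeps H3K4me1 of WT at 0 h out of the member, and at 1 kb the longer side lay inside H3K4me2 more often. That list differed by -9.05 points at 1 kb, so the H3K4me1 sides in the other lists are not independent of the rule. In the regions with Pol II and H3K4me1 the lean was larger, with 18.5 points for H3K4me2 at 1 h and 1 kb. For H3K4me1 at 2 kb it was 18.2 points in KO and 15.8 points in WT at 1 h.

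H3K36me3, the mark of transcribed gene bodies, was rare in members. At 1 h it was called in 28 members of KO, 0.737% (0.49 to 1.06), and in 83 of WT, 2.18% (1.74 to 2.7), against 2.24% and 5.61% of all H3K4me2 regions. At 0 h it was called in 32 members of KO, 0.842%, and 69 of WT, 1.82%, against 2.51% and 4.33% of all regions. The regions with Pol II and H3K4me1 had 4.36% in KO and 10.1% in WT at 1 h. KO minus WT was -1.45 points at 1 h (-1.68 to -1.08) and -0.97 points at 0 h (-1.3 to -0.56). With lists of the same length the differences were -0.16 and -0.079 points; the KO lists held 3166 and 3685 regions and the WT lists 17465 and 11530. In members of at least the median width they were -2.21 and -1.47 points, and within 1 kb of the centre the 1 h difference was -0.82 points.

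The LSD1 antibody called sites in most members. In wild type neurons 68.3% (66.8 to 69.8) had a site at 1 h and 68.7% (67.2 to 70.2) at 0 h, against 44.1% and 49.4% of all H3K4me2 regions. LSD1n KO neurons had sites in 56.4% (54.8 to 58) and LSD1n WT neurons in 59.4% (57.8 to 61), against 37% and 40.1% of all. These shares were close to those of the regions with Pol II and H3K4me1 in wild type (68.6% and 67.3%) and somewhat above them in LSD1n KO (49.6%) and LSD1n WT (55.1%). All 4 LSD1 lists called 1159 members (30.5%), and none of the 4 called 316 (8.32%), near the 28.5% and 10.2% of the regions with Pol II and H3K4me1.

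In wild type, 662 members were called at 1 h alone and 677 at 0 h alone, and the difference of -0.39 points (-2.31 to 1.52) changed sign with the settings. It was 2.84 points with lists of the same length, 1.84 points at an overlap of 100 bp and 0.24 points within 1 kb of the centre, and -3.94 points for regions with Pol II in either list. Between LSD1n KO and LSD1n WT, 486 members were called in KO alone and 602 in WT alone, a difference of -3.05 points (-4.76 to -1.33). It was -8.10 points in members of at least the median width. These 2 libraries have different title prefixes and the KO label gives no KCl time, so genotype, prefix and time cannot be told apart.

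The place of the LSD1 site differed between 1 h and 0 h as well. In wild type at 1 h the nearest site within 1 kb lay a median of 134 bp from Pol II (quartiles 72.5 and 234 bp), and in 35.7% of members with such a site within 100 bp. At 0 h the median was 336 bp (210 and 493 bp), with 10.2% within 100 bp. In the 2010 members with a site at both times the medians were 132 bp at 1 h and 339 bp at 0 h, and the 1 h site was the nearer one in 1590 members, 79.1% (77.3 to 80.9), and the farther one in 417. With lists of the same length this share was 79.6%.

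The other LSD1 libraries, whose title prefixes differ from the wild type one, had distances like those of wild type at 0 h. The median distance was 350 bp in LSD1n KO, where no KCl time is given, and 347 bp in LSD1n WT at 0 h. In the 1730 members with a site in both, the KO site was nearer in 836 and the WT site in 881. Flag sites lay close to Pol II at both times: 145 bp for Flag-LSD1n at 1 h and 167 bp at 0 h, 119 bp for Flag-LSD1c at 1 h and 135 bp at 0 h. The regions with Pol II and H3K4me1 had the same order, with 145 bp at 1 h and 335 bp at 0 h for LSD1 in wild type, so the shift was not particular to the members. It rests on 1 library per time.

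**Figure D4:**
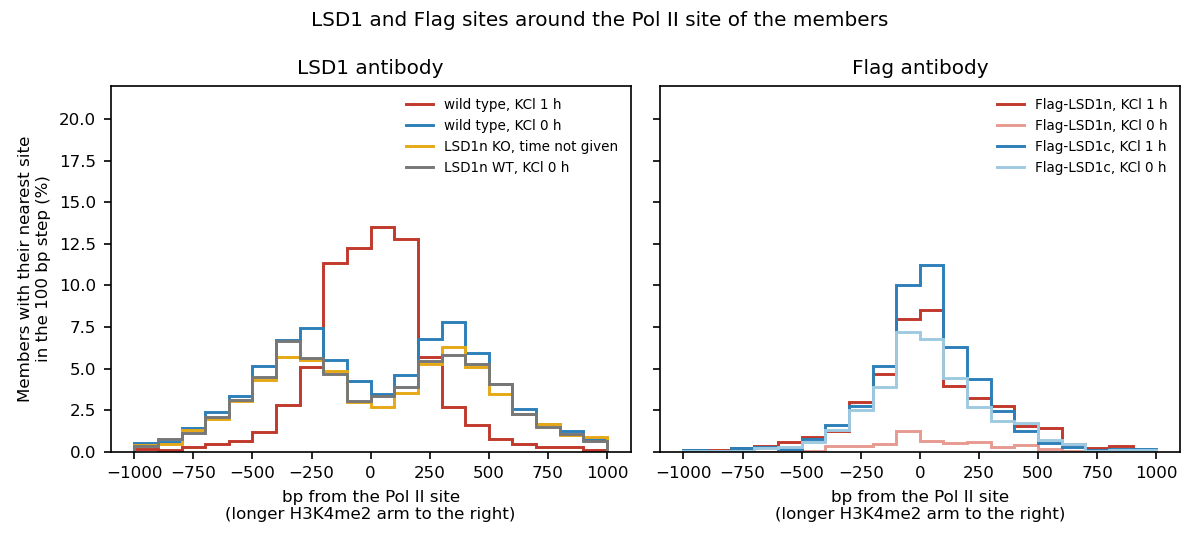
Share of the 3426 members with 1 Pol II site per 0 h list (%, y axis) whose nearest LSD1 (left) or Flag (right) site falls in each 100 bp step from that Pol II site (bp, x axis; the longer H3K4me2 arm is to the right). LSD1 of wild type at 1 h (red, left) and the Flag lists are centred on Pol II, while the other 3 LSD1 lists have 2 maxima about 300 bp to each side.

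Flag-LSD1n was called in far more members after KCl, as was its list as a whole. At 1 h 1518 members had a site, 39.9% (38.4 to 41.5), and at 0 h 195, 5.13% (4.45 to 5.88), against 21.9% and 3.42% of all H3K4me2 regions. Flag-LSD1c was called in 1788 members at 1 h, 47.1% (45.5 to 48.7), and in 1287 at 0 h, 33.9% (32.4 to 35.4), against 27% and 18.8% of all. The regions with Pol II and H3K4me1 were similar, with 37.6% and 6.35% for Flag-LSD1n and 48.9% and 32.8% for Flag-LSD1c, while regions without Pol II stayed below 4% in all 4 lists.

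The list lengths went with these differences. Flag-LSD1n was called at 1 h alone in 1393 members, at 0 h alone in 70 and at both in 125, a gain of 34.8 points (33.9 to 35.6), which was 2.29 points with lists of the same length. Its list held 4438 sites at 1 h and 940 at 0 h. The 1 h library had 26208203 tags and the 0 h library 31804648, with 0.31% and 0.081% of them in peaks. For Flag-LSD1c the difference was 13.2 points (11.3 to 15.1) and 0.34 points with lists of the same length, from 5480 and 3922 sites. Its libraries had 19610076 tags at 1 h and 27416097 at 0 h, with 0.43% and 0.26% of them in peaks. For both isoforms the longer list thus came from the library with fewer tags, and the cause was not tested. The share of each list that fell in members was counted as well. Of the autosomal Flag-LSD1n sites 36.4% (35 to 37.9) lay in members at 1 h and 24.4% (21.5 to 27.6) at 0 h. The share in any H3K4me2 region was higher at 1 h as well, with 85.7% against 71.9% at 0 h. In the regions with Pol II and H3K4me1 it was 40.0% at 1 h and 36.9% at 0 h. Of the Flag-LSD1c sites 34.7% (33.4 to 35.9) lay in members at 1 h and 34.8% (33.3 to 36.3) at 0 h, and 85.6% and 82.9% in any H3K4me2 region. For LSD1 in wild type the shares were 15.2% at 1 h and 14.1% at 0 h.

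Both isoforms were called at many of the same members. At 1 h 941 members had both, 577 Flag-LSD1n alone and 847 Flag-LSD1c alone, a difference of -7.11 points (-9.03 to -5.15). It was 1.53 points with lists of the same length. At 0 h 102 had both, 93 Flag-LSD1n alone and 1185 Flag-LSD1c alone (-28.7 points, -29.7 to -27.7), and -2 points with lists of the same length. Of the members with Flag-LSD1n, 62% at 1 h and 52.3% at 0 h also had Flag-LSD1c. Over all H3K4me2 regions these shares were 59.3% and 55.5%, so the members were near the background. The isoforms come from different lines and title prefixes, so isoform, line and prefix cannot be told apart. Of the members with Flag-LSD1c at 0 h, 54.3% (51.5 to 57.1) had Flag-LSD1n at 1 h, against 32.6% (30.8 to 34.5) of those without. These shares were not counted in other regions.

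**Figure D5:**
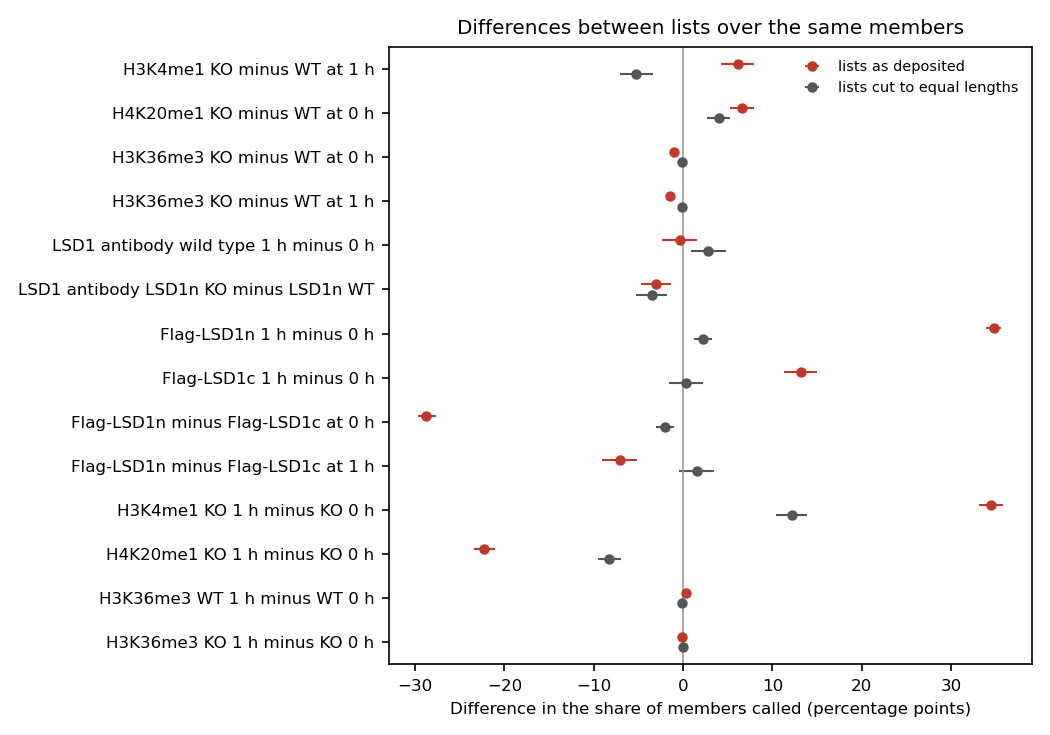
Difference in the share of the 3800 members called (percentage points, x axis) for 14 pairs of lists (y axis), with the lists as deposited (red) and cut to the same length (grey); bars are 95% intervals from the members called in 1 list of the pair only. The 2 Flag differences over KCl time shrink to 2.29 and 0.34 points, and 4 differences change sign: H3K4me1 KO minus WT at 1 h, the isoforms at 1 h, LSD1 of wild type and H3K36me3 of WT over KCl time.

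Over all 4 Flag lists 2672 members (70.3%) had a site at some time and 1128 (29.7%) had none, close to the 69.7% and 30.3% of the regions with Pol II and H3K4me1. No Flag site was found in 93.1% of the regions with H3K4me1 and no Pol II. The same held for 90.8% of those with neither and 71.7% of those with Pol II in 1 list. The commonest patterns with a site were Flag-LSD1c at 1 h alone (527 members), Flag-LSD1n at 1 h with Flag-LSD1c at both times (436), Flag-LSD1n and Flag-LSD1c at 1 h (413) and Flag-LSD1n at 1 h alone (352). All 4 lists called 57 (1.5%), against 2.37% of the regions with Pol II and H3K4me1. The other patterns, and the set that follows, were not counted in other regions. Flag-LSD1n at 1 h without Flag-LSD1c at either time held 371 members (9.76%). The widest was on chromosome 7 (81696487 to 81700843, 4357 bp), where H4K20me1 covered 34.9% of the region in KO and 70.9% in WT at 0 h. The next was on chromosome 19 (32460554 to 32464604, 4051 bp), with 55.6% in KO and 22.6% in WT.

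A small group of 191 members (5.03%) had no LSD1 or Flag site in any of the 8 lists, against 5.60% of the regions with Pol II and H3K4me1. The share was 20.9% for Pol II in 1 list, 58.7% for H3K4me1 without Pol II and 55.9% for neither. Besides the member on chromosome 15 described above, the 191 included 4989 bp on chromosome 6 (39820680 to 39825668), with H4K20me1 over 68.2% of the region in KO and 80.7% in WT at 0 h. They also included 4901 bp on chromosome 5 (22936363 to 22941263), with 32.4% in KO and 38.1% in WT. At the other end, outside regions called with all 8 targets, 21 of the 27 lists called 3237 bp on chromosome 8 (28087042 to 28090278), 3113 bp on chromosome 11 (61666210 to 61669322) and 2149 bp on chromosome 2 (90780063 to 90782211). The region on chromosome 8 had no Flag site, while the others had a site in all 4 Flag lists and all 4 LSD1 lists. Merged regions that hold peaks of all 8 targets contained 271 members (7.13%). Members included, they held 1014 of the 16358 H3K4me2 regions, so the members' share was near the background.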

How the data were processed

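The study's 27 ChIP-seq libraries with a deposited list were used; 14 further samples of the series are not analysed here. Alignment and peak calling tools named in the submitters' processing notes are Bowtie and HOMER (versions not given in the sources used here), with mm9 as the build. Per the file headers, histone regions were stitched from 500 bp peaks with a minimum distance of 1250 bp. Pol II, LSD1 and Flag sites were called at 200 bp, 500 bp apart, with a 4-fold excess of tags over the local 10 kb. The authors' false discovery rate was 0.001, the fragment length 150 bp, and 1 tag was kept per position. No control library appears in the headers. Positions in bp are the deposited values used, since each entry has the same deposited score of 1 and thus no usable height.

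From these lists, overlaps of at least 1 bp were counted with Python 3.11.15 and numpy 2.4.6, and exact Clopper-Pearson intervals at 95% came from scipy 1.17.1; figures used matplotlib 3.10.9. A difference between 2 lists over the same members has an interval from the members called in 1 list only. Neighbouring regions are not independent, so all intervals are too narrow. The calculation was tested on simulated lists. Regions around Pol II were read in steps of 100 bp from the mean of the 2 lists' peak centres. To equalize lists, the longer one was cut to its widest regions for histone marks, and to its first entries in the deposited order for sites. For histone marks the cut thus removes narrow calls from 1 of the 2 lists only. Positions count from 1.

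Named regions are the 3 widest members, the 3 in most lists outside regions called with all 8 targets, and the 3 widest in each of 4 sets: Flag-LSD1n at 1 h without Flag-LSD1c, no LSD1 or Flag site, no H3K4me2 at 1 h, and H3K4me1 in the other 3 lists. The text gives most of them. The members and these sets were chosen with earlier results of these data known. Gene lists and cell type markers were planned but not examined, since they need gene positions on mm9.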

Additional observations from a re-analysis of the deposited data

Results flagged for a closer look

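The KCl differences of H3K36me3 in members had opposite signs in the 2 genotypes, both with intervals across 0. In LSD1n KO the share was 0.737% at 1 h and 0.842% at 0 h, a difference of -0.11 percentage points (-0.44 to 0.24). In LSD1n WT it was 2.18% at 1 h and 1.82% at 0 h, a difference of 0.37 points (-0.14 to 0.85). The KO difference minus the WT difference was -0.47 points. Over all H3K4me2 regions the differences were -0.26 points in KO (-0.51 to -0.015) and 1.28 points in WT (0.96 to 1.58). The KO list held 3166 regions at 1 h and 3685 at 0 h, and the WT list 17465 and 11530. With lists of the same length the differences in members were -0.053 points in KO and -0.11 points in WT, and the signs were no longer opposite. Each group holds 1 library and the difference was not tested.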

How the results depend on the processing

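Members numbered 2472 without those with H3K4me1 within 1 kb, and 1901 at the median width or more. Over 1 kb around the centre, the share kept at 1 h was 74.7% for H3K4me2 and 82.2% for Pol II. H3K4me2 was kept in 77.8% of members without H3K4me1 within 1 kb. Pol II was kept in 89.1% of regions with Pol II in either list. At the median width or more H3K4me2 was kept in 88.7% and Pol II in 97.7%. The cause of these changes was not tested.

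Differences below are in percentage points. With lists of the same length, H3K4me1 KO minus WT at 1 h was -5.26, H4K20me1 at 0 h 3.97, and H3K36me3 -0.079 at 0 h and -0.16 at 1 h. LSD1 in wild type (1 h minus 0 h) was 2.84, Flag-LSD1n 2.29 and Flag-LSD1c 0.34, and Flag-LSD1n minus Flag-LSD1c -2 at 0 h and 1.53 at 1 h. Over 1 kb around the centre they were 4.18 for H3K4me1, -0.82 for H3K36me3 at 1 h, 0.24 for LSD1 in wild type, 31.0 for Flag-LSD1n, 10.9 for Flag-LSD1c, and -24.9 (0 h) and -4.82 (1 h) between isoforms. At the median width or more they were 8.94 for H4K20me1, -1.47 (0 h) and -2.21 (1 h) for H3K36me3, -8.10 for LSD1 in LSD1n KO minus LSD1n WT, 38.3 for Flag-LSD1n, 15.3 for Flag-LSD1c, and -32.7 (0 h) and -9.73 (1 h) between isoforms. With Pol II in either list they were -3.94 for LSD1 in wild type, 31.8 for Flag-LSD1n and -25.9 between isoforms at 0 h. An overlap of 100 bp gave 1.84 for LSD1 in wild type. Flag-LSD1n was 33.2 without members near H3K4me1 and 31.6 without regions called with all 8 targets, where H3K36me3 at 1 h was -1.05. The cause was not tested.

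Leaving out 1 of the 2 WT libraries of H4K20me1 at 1 h gave KO minus WT values from -9.42 to 9.47 points and WT shares from 6.68% to 25.6%. With lists of the same length, added after seeing the data, 1 h minus 0 h was 12.2 points for H3K4me1 in KO, -8.26 for H4K20me1 in KO and -0.11 for H3K36me3 in WT. With both wild type LSD1 lists cut to the length of the Flag-LSD1n list at 1 h, an alternative chosen after seeing the data, the 1 h site was nearer Pol II in 82.8% of members. No paired analysis was possible because each group but 1 has 1 library. With scores of 1 throughout, the depth behind a single peak is unknown, and absence from a list is not absence of the mark.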

Other observations

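LSD1 sites went together within members. Flag-LSD1n at 1 h was found in 43.3% (41.4 to 45.3) of members with an LSD1 site of wild type at 1 h and in 32.7% (30 to 35.4) of those without, and Flag-LSD1c at 1 h in 53.5% (51.6 to 55.5) and 33.1% (30.4 to 35.8). These shares were counted neither in other regions nor at like width. Members with Flag-LSD1n at 1 h had a median width of 1569 bp, against 1391 bp without it. Members with an LSD1 site in LSD1n WT had H4K20me1 at 0 h in 39.2% (KO) and 33.6% (WT), a difference of 5.58 points (3.77 to 7.31), and members without such a site in 37.4% (KO) and 29.1% (WT), a difference of 8.24 points (6.12 to 10.2). Both differences used the lists as deposited and were not counted in other regions. Where a mark was called, it covered part of the member: the median covered share was 56.7% for H3K4me2 at 1 h, 36.3% (KO) and 33.1% (WT) for H4K20me1 at 0 h, and 33.1% (KO) and 30.2% (WT) for H3K4me1 at 1 h.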
